A study of Homo sapiens with 6 samples.

Results

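A set of 10 genes that protect cells against peroxides and against ferroptosis, an iron-dependent cell death driven by lipid peroxidation, were measured in K562 cells, a Bcr-Abl-positive human chronic myelogenous leukemia line. The genes were chosen by name: GPX4, GPX1, SLC7A11, HMOX1, NQO1, GCLC, GCLM, TXN, TXNRD1 and PRDX1. They were chosen with earlier results of these data known, so the share of them called below is a description with no test. They are 10 of the 19053 genes that the deposited expression table could be matched to, and they hold 30 of its 109018 rows, each row being 1 RefSeq protein accession. Reads were summed over a gene's rows, and the rows were also compared singly. The study asked which genes depend on lncRNA-IUR-5, a long noncoding RNA that its labels call lncRNA-IIRX. K562 cells expressed either a short hairpin RNA against it (sh-IUR-5, 3 libraries) or one against luciferase (sh-luc, 3 libraries). Both lines were made stable with a lentiviral pSIH vector, so the controls carry a vector and a hairpin too, and both groups were otherwise untreated in the labels. A single hairpin stood for the knockdown. The table counts protein-coding accessions, so the level of the lncRNA itself was not checked here. Nothing in the labels says whether the 3 independent groups of cells came from separate infections, and the p-values measure the spread between these libraries.

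These genes form neighbouring lines of defence. SLC7A11 imports cystine, GCLC and GCLM join cysteine to glutamate in the first step of glutathione synthesis, and the glutathione peroxidases GPX4 and GPX1 spend glutathione on lipid and soluble peroxides. In the parallel thioredoxin system, TXNRD1 passes electrons from NADPH to thioredoxin (TXN), which recharges the peroxiredoxin PRDX1. NQO1 reduces quinones and HMOX1 breaks down heme. Many of these genes are known targets of the transcription factor NRF2, which binds an antioxidant response element and is held back by KEAP1 and opposed by BACH1.

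GPX4, GPX1 and TXNRD1 are selenoproteins, in which an in-frame UGA codon is read as selenocysteine in the active site. The coding bases around that codon are shown because they set these 3 members apart from the other 7, with the codon in capitals (hg38, GENCODE 44, written 5′ to 3′ on the coding strand). GPX4 carried it at codon 73 of 197 (chr19:1105379-1105429, + strand), GPX1 at codon 49 of 203 (chr3:49358108-49358158, − strand) and TXNRD1 at codon 648 of 649 (chr12:104348389-104348418, + strand).
GPX4: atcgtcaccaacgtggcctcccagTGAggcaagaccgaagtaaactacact
GPX1: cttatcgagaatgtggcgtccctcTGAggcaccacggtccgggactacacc
TXNRD1: gcaagcatcctccaggctggctgcTGAggt

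RefSeq promoter windows (GRCh38.p14, 250 bases before to 50 after a start) were matched for 7 of the 10 genes, 10 windows in all. The core of the antioxidant response element, TGACNNNGC on either strand, occurred in 3 of these windows, belonging to GCLM and TXNRD1 and not to GCLC, TXN, NQO1, GPX1 or GPX4, against 4687 of 35116 promoter windows of all genes (13.3%). No match says only that these letters were not in the window. The 4 matches are shown, with the core in capitals, to show where the core lies. Distances are from the start site to the middle of the core: −30 bases in GCLM (chr1:93909446-93909474, − strand gene), −95 and −4 bases at one TXNRD1 start (chr12:104215670-104215698 and chr12:104215761-104215789), and −98 bases at another (chr12:104286920-104286948). The first of the TXNRD1 matches is on the strand of the gene, and each of the other matches on the opposite strand, written 5′ to 3′.
GCLM, −30: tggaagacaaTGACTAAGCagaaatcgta
TXNRD1, −95: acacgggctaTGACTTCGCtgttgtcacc
TXNRD1, −4: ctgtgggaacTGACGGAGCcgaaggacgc
TXNRD1, −98: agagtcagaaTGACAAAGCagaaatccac

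The libraries held 21023739 to 23320543 reads on the table's accessions in sh-luc and 24325122 to 31481109 in sh-IUR-5. The library descriptions number the libraries 1, 2.1 and 2.2 in both groups, so libraries 2 and 3 of a group share a series number whose meaning is not given in the sources used here. Library 1 stood apart in both groups. In sh-luc its counts differed from those of libraries 2 and 3 by a chi-square of 10.2 and 9.57 per gene, against 5.29 between libraries 2 and 3, and in sh-IUR-5 by 20.9 and 22.5 against 3.35. Fold changes below are log2 ratios of sh-IUR-5 to sh-luc from the quasi-likelihood test of edgeR on TMM-scaled counts, a scaling that assumes most genes did not move, with Benjamini-Hochberg adjustment over 10392 genes with a mean summed RPKM of at least 1. Scaling to total reads instead raised the median log2 fold change of all genes from 0.0131 to 0.221. In the TMM fit 47.8% of all genes passed adjusted p = 0.05, 24.8% higher and 22.9% lower in sh-IUR-5. Over all genes the median log2 fold change fell from 0.17 in the lowest quintile of level to −0.24 in the highest, and rose from −0.23 in the quintile with the shortest coding sequence to 0.21 in the longest. The summed RPKM of 8 K562 markers (globins, GATA1 and others) was 20225 to 22601 in sh-luc and 16105 to 16791 in sh-IUR-5. The 6 markers of other cells summed to 86.8 to 99.7 in sh-luc and 91.6 to 110.8 in sh-IUR-5, nearly all of it EPCAM. The part of these differences in the results below was not tested.

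Of the 10 genes, 9 had enough reads to be tested and 6 passed the threshold, 2 higher and 4 lower in sh-IUR-5, against 47.8% of all genes. TXNRD1 and GCLC rose, whereas PRDX1, GPX4, TXN and NQO1 fell. The genes that fell were the 4 most abundant of the set. Without library 1 of sh-IUR-5, 3 rose (TXNRD1, GCLC and GCLM) and the same 4 fell. With total-read scaling 4 rose (TXNRD1, GCLC, GCLM and SLC7A11) and 3 fell (PRDX1, GPX4 and TXN). The RPKM values of the groups did not overlap for 7 of the 10 genes, 4 higher and 3 lower, against 59.8% of all tested genes (46.6% higher and 13.1% lower). After TMM scaling they did not overlap for 6, against 56.6% of all tested genes.

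Levels spanned from 1913 RPKM for PRDX1, as the mean of all 6 libraries, to no read for HMOX1. TXN followed with 1558 RPKM, then GPX4 with 345.2, NQO1 with 294, TXNRD1 with 64.9, GCLM with 18.9, GCLC with 10.2, SLC7A11 with 3.26 and GPX1 with 1.79. The plot of summed RPKM by library shows GPX4 and NQO1 as neighbours whose values came close, NQO1 reaching 309.2 and GPX4 falling to 294.4 in single libraries. The values of SLC7A11 and GPX1 overlapped as well.

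**Figure D1:**
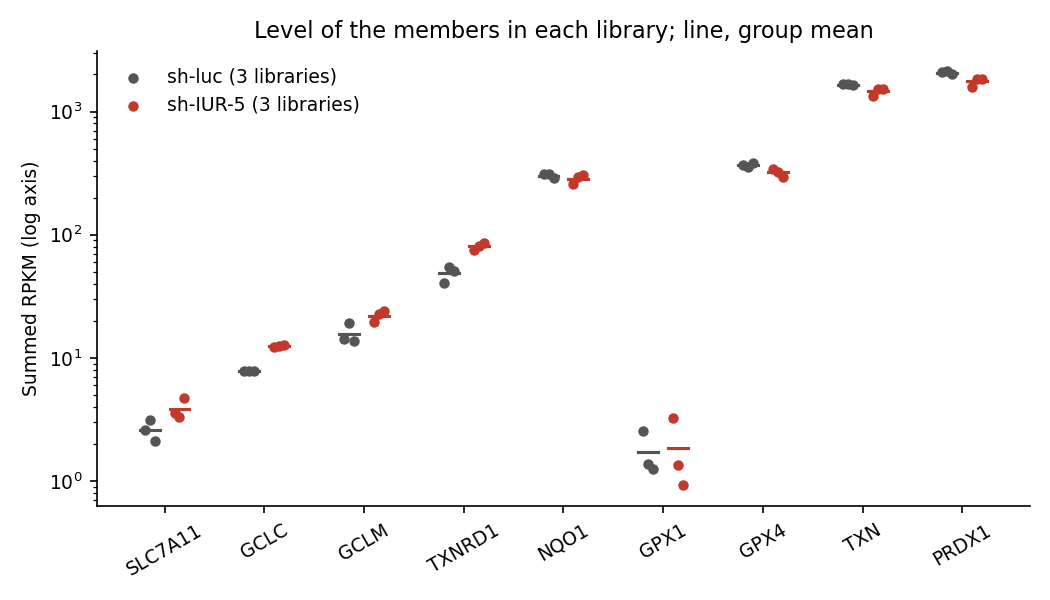
Summed RPKM (log axis) of 9 genes in each of 3 sh-luc (grey) and 3 sh-IUR-5 (red) libraries, with a line at the group mean; HMOX1, with no read, is not drawn. The SLC7A11, GCLC, GCLM and TXNRD1 points of sh-IUR-5 lie above all those of sh-luc, and the GPX4, TXN and PRDX1 points lie below them.

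In the glutathione arm, GCLC, the catalytic subunit of glutamate-cysteine ligase (hg38 chr6:53497341-53616970, − strand), was 7.80, 7.77 and 7.89 RPKM in the sh-luc libraries and 12.2, 12.5 and 12.8 RPKM in the sh-IUR-5 libraries. The groups did not overlap, and the spread within each was small. GCLC rose by a log2 fold change of 0.47 (SE 0.085, adjusted p = 0.000858).

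GCLM, the modifier subunit of the same enzyme (chr1:93885199-93909456, − strand), was 14.2, 19.3 and 13.7 RPKM in sh-luc and 19.5, 22.7 and 23.9 RPKM in sh-IUR-5. All sh-IUR-5 values lay above the sh-luc values, but library 2 of sh-luc nearly reached them, and after TMM scaling the groups overlapped (10.4 to 15.1 and 12.4 to 16.2 TMM-scaled RPM, a library-scaled read count with no length term). The log2 fold change of 0.27 (SE 0.15) missed the threshold (adjusted p = 0.152). It passed without library 2 of sh-luc (0.47, adjusted p = 0.0173) and without library 1 of sh-IUR-5 (0.39, adjusted p = 0.0346). Over its alternatives the adjusted p of GCLM ranged from 0.0128 to 0.413.

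SLC7A11, the light chain of the cystine transporter (chr4:138164097-138242349, − strand), had only 67 to 102 reads per sh-luc library and 122 to 178 per sh-IUR-5 library. Its level was 2.61, 3.16 and 2.11 RPKM in sh-luc and 3.59, 3.32 and 4.76 RPKM in sh-IUR-5. The RPKM groups did not overlap, although after TMM scaling they did, with 3.39 to 5.19 TMM-scaled RPM in sh-luc and 4.76 to 6.80 in sh-IUR-5. The log2 fold change was 0.36 (SE 0.19, adjusted p = 0.144), and with total-read scaling 0.56 (adjusted p = 0.0264). Its partner SLC3A2, the heavy chain, had a log2 fold change of −0.10 (SE 0.075, adjusted p = 0.286).

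GPX4, which reduces lipid hydroperoxides in membranes (chr19:1103982-1106791, + strand), was 368.2, 356.9 and 383.1 RPKM in sh-luc and 343.5, 325.2 and 294.4 RPKM in sh-IUR-5. Every sh-IUR-5 library lay below every sh-luc library. It fell by 0.41 on the log2 scale (SE 0.069, adjusted p = 0.000568). After total-read scaling the fall was smaller, at −0.20 (adjusted p = 0.0283).

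GPX1, the cytosolic glutathione peroxidase (chr3:49357174-49358605, − strand), was near the detection limit with 14 to 27 reads per sh-luc library and 14 to 51 per sh-IUR-5 library. Its level was 2.56, 1.38 and 1.25 RPKM in sh-luc and 3.25, 1.36 and 0.924 RPKM in sh-IUR-5. Library 1 was the highest in both groups, and the groups overlapped. The log2 fold change was −0.054 (SE 0.40, adjusted p = 0.925), and its sign changed with the scaling and with the library left out. At this depth no difference was detectable. The count of GPX1 is also uncertain because 2 pseudogenes, GPX1P1 and GPX1P2, match its coding sequence over up to 590 bases at up to 98.3% identity.

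In the thioredoxin arm, TXNRD1 (chr12:104215779-104350307, + strand) was 40.3, 54.7 and 51.2 RPKM in sh-luc and 75.5, 81.0 and 86.4 RPKM in sh-IUR-5. The lowest sh-IUR-5 library exceeded the highest sh-luc library. TXNRD1 rose by a log2 fold change of 0.53 (SE 0.11, adjusted p = 0.00209), the largest change among the 10 genes.

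Its substrate TXN (chr9:110243810-110256507, − strand) was 1658, 1661 and 1646 RPKM in sh-luc and 1329, 1520 and 1535 RPKM in sh-IUR-5. The sh-luc libraries lay close together, and all sh-IUR-5 libraries were lower, library 1 the most. TXN fell by 0.38 on the log2 scale (SE 0.080, adjusted p = 0.00219), and by 0.29 without library 1 of sh-IUR-5 (adjusted p = 0.000722).

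PRDX1, which reduces hydrogen peroxide with electrons from thioredoxin (chr1:45510914-45542732, − strand), was 2076, 2114 and 2023 RPKM in sh-luc and 1594, 1843 and 1828 RPKM in sh-IUR-5. The groups did not overlap, and library 1 of sh-IUR-5 was again the lowest. PRDX1 fell by 0.44 on the log2 scale (SE 0.081, adjusted p = 0.000975), and by 0.35 without library 1 of sh-IUR-5 (adjusted p = 0.000122). Reads of TXN and PRDX1 could be shared with processed copies elsewhere in hg38: 4 TXN pseudogenes and 1 PRDX1 pseudogene matched at up to 93.7% and 93.5% identity.

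NQO1, a quinone reductase (chr16:69706996-69726668, − strand), was 309.2, 309.1 and 288.0 RPKM in sh-luc and 258.8, 296.2 and 302.7 RPKM in sh-IUR-5. These RPKM groups overlapped, whereas the TMM-scaled values did not, at 221.9 to 243.3 TMM-scaled RPM in sh-luc and 170.1 to 208.7 in sh-IUR-5. NQO1 fell by 0.28 on the log2 scale (SE 0.086, adjusted p = 0.0203). The call was lost without library 1 of sh-luc (−0.26, adjusted p = 0.0527), without library 2 of sh-luc (−0.25, adjusted p = 0.0662) and with total-read scaling (−0.07, adjusted p = 0.427). Without library 1 of sh-IUR-5 the change was −0.18 (adjusted p = 0.0335). Over its alternatives the adjusted p ranged from 0.000254 to 0.427.

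HMOX1, the inducible heme oxygenase (chr22:35380361-35394214, + strand), is listed with 0 reads in each of the 6 libraries, each of which held at least 21023739 reads. A count of 0 allows a level of up to 0.110 to 0.165 RPKM per library (3 reads, counting error only). This bound holds for the 1 row matched to HMOX1. Only 64.7% of rows were matched to a symbol, and any reads of HMOX1 in unmatched rows would not be counted. HMOX1 was 1 of 3995 genes in the table with no read in any library.

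Removing the trends of fold change with coding length and GC content moved several of these values. The log2 fold change of GPX4 went from −0.41 to −0.21 (adjusted p = 0.00995), that of GCLC from 0.47 to 0.24 (adjusted p = 0.025), that of TXN from −0.38 to −0.25 (adjusted p = 0.00536) and that of TXNRD1 from 0.53 to 0.34 (adjusted p = 0.0172). PRDX1 stayed at −0.44 (adjusted p = 0.000297) and NQO1 at −0.28 (adjusted p = 0.00864). The same 6 genes therefore passed with and without the length and GC trends. The trend with level, a median log2 fold change of −0.24 in the highest quintile, was not removed. Of the members that fell, GPX4, TXN and PRDX1 were in the shortest quintile of coding length and all 4 in the highest quintile of level. TXNRD1, which rose, was also in the highest quintile of level but in the fourth quintile of length.

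**Figure D2:**
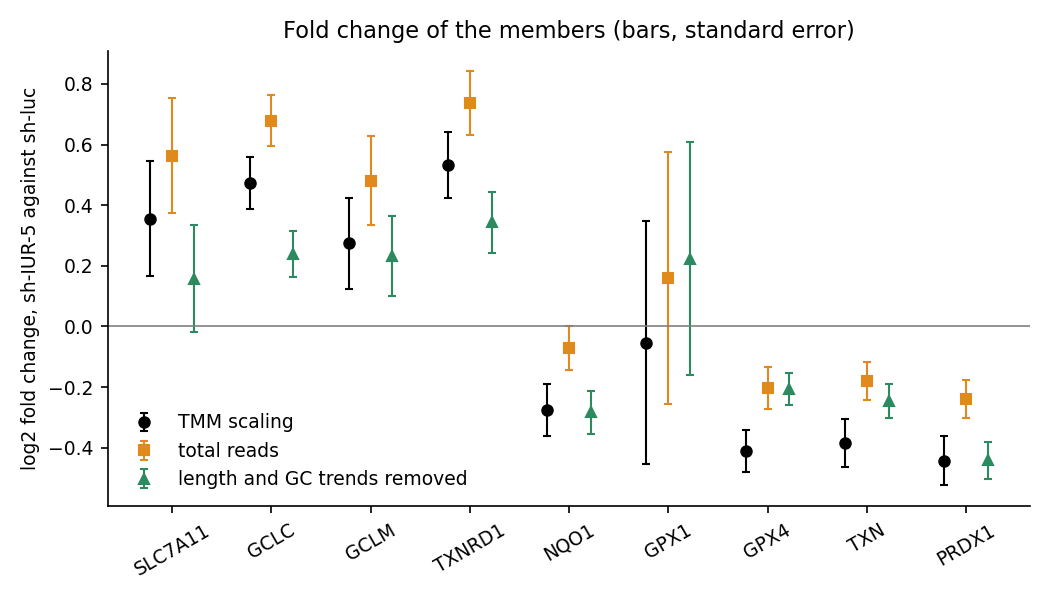
Log2 fold change (sh-IUR-5 against sh-luc, 3 libraries each) of 9 genes, with standard errors, after TMM scaling (circles), total-read scaling (squares) and removal of length and GC trends (triangles). GCLC and TXNRD1 lie above 0 and GPX4, TXN and PRDX1 below 0 in all 3, while NQO1 lies at −0.07 with total reads and GPX1 changes sign.

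Ratios of 2 genes within a library do not depend on how libraries are scaled, but they keep the trends with coding length and GC content. With those trends removed, some log2 fold changes were smaller: 0.34 for TXNRD1 and −0.25 for TXN, and 0.19 for GSR and −0.21 for GPX4. That of SRXN1 was larger, at 0.96 against 0.63, while PRDX1 stayed at −0.44. NQO1 stayed at −0.28, and NQO2 went from −1.01 to −0.94. Here, 6 such ratios of functional partners were formed after the values had been seen. In 3 of them a gene that rose was set over one that fell, so the ratios are given as a description with no test. The ratio of TXNRD1 to TXN was 0.0243, 0.0329 and 0.0311 in sh-luc and 0.0568, 0.0533 and 0.0563 in sh-IUR-5, so that the mean was 1.89 times higher. The ratio of sulfiredoxin (SRXN1), which restores overoxidized peroxiredoxins, to PRDX1 was 0.00329 ± 0.00056 in sh-luc and 0.00694 ± 0.0010 in sh-IUR-5 (SD, n = 3), a factor of 2.11. The ratio of glutathione reductase (GSR) to GPX4 was 0.0788 ± 0.0090 against 0.125 ± 0.021, and that of NQO1 to its relative NQO2 1.42 ± 0.089 against 2.34 ± 0.099 (SD, n = 3). These 4 ratios did not overlap between groups. For comparison, 59.8% of all tested single genes did not overlap in RPKM, and no such share was formed for gene pairs. The GCLC to GCLM ratio, 0.510 ± 0.093 against 0.572 ± 0.048, and the SLC7A11 to SLC3A2 ratio, 0.0204 ± 0.0045 against 0.0280 ± 0.0058 (SD, n = 3), did overlap. In the NQO1 to NQO2 ratio the lower term moved more, NQO2 falling from 212.6 ± 6.0 to 122.3 ± 5.2 RPKM (SD, n = 3).

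**Figure D3:**
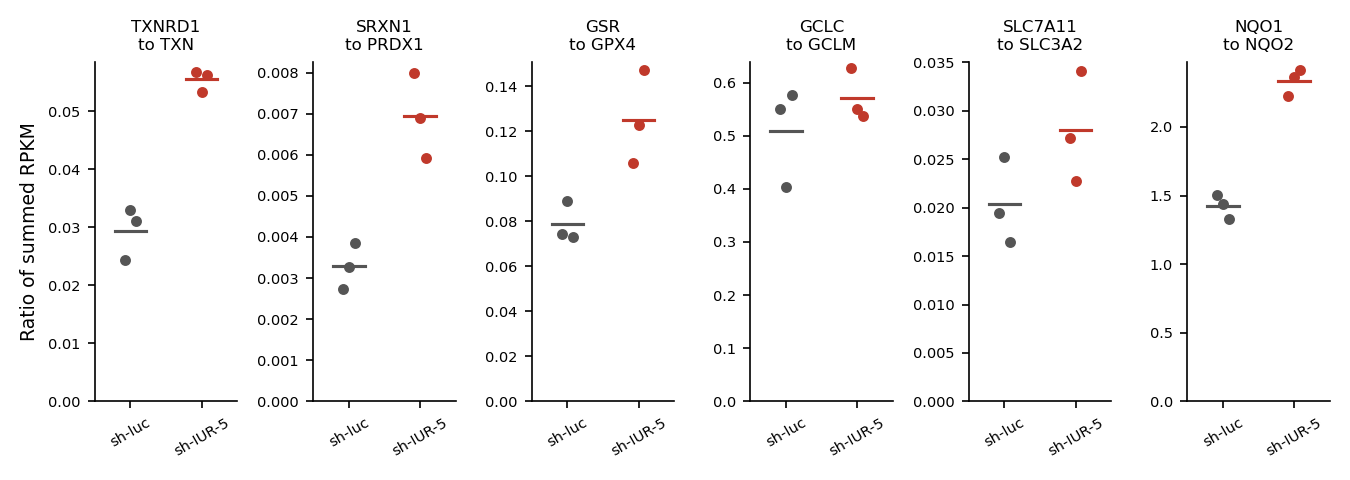
Ratio of summed RPKM within each library for 6 gene pairs in sh-luc (grey) and sh-IUR-5 (red), with a line at the mean of 3 libraries and each axis starting at 0. The groups lie apart for TXNRD1 to TXN, SRXN1 to PRDX1, GSR to GPX4 and NQO1 to NQO2, and overlap for GCLC to GCLM and SLC7A11 to SLC3A2.

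Read singly, 28 of the 30 rows of these genes reached a mean of 1 RPKM and 21 of them passed the threshold, 9 higher and 12 lower, against 37.3% of all 38204 rows (19.2% higher and 18.1% lower). The rows of one gene share sequence and reads, so they do not add replicates. All 7 rows of TXNRD1 rose, by 0.44 (NP_877420.1) to 0.63 (NP_001248374.1) on the log2 scale, and so did both GCLC rows, by 0.44 and 0.52. All 3 GPX4 rows fell by 0.38 to 0.42, both TXN rows by 0.36 and 0.37, and all 4 PRDX1 rows by 0.42 to 0.44. Of the 4 NQO1 rows 3 fell, by 0.30 to 0.38, whereas the longest (NP_000894.1, 825 bases) changed by −0.16 (SE 0.086, adjusted p = 0.15). None of the GCLM or SLC7A11 rows passed. The log2 fold changes of the 3 GCLM rows were 0.08, 0.40 and 0.36. A test of whether the rows of one gene moved unequally (edgeR's diffSpliceDGE) called 3.14% of 5805 genes and none of the 8 members with several tested rows (adjusted p = 1.00 each). The lowest unadjusted p in that edgeR test was 0.443, for NQO1, so none of the 8 was below 0.05. Rows that share most of their reads can hardly move apart, so the test cannot show that isoforms moved equally. The 4 PRDX1 rows, for example, were each 600 bases long and held 24.9% to 25.1% of that gene's reads.

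**Figure D4:**
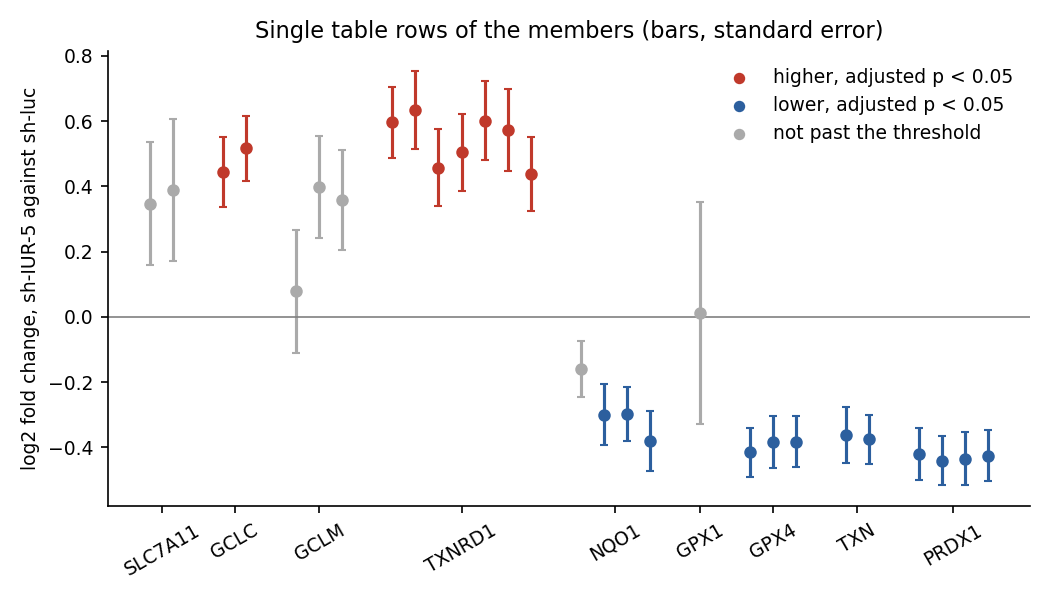
Log2 fold change with standard error of each of 28 table rows, grouped by gene and coloured by whether the row was higher, lower or not past the threshold in sh-IUR-5 (3 libraries per group). All TXNRD1 and GCLC rows lie above 0, all GPX4, TXN, PRDX1 and NQO1 rows below 0, and 1 of the 4 NQO1 rows does not pass.

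A further 7 lists of related genes, 132 genes in all, put these results beside their pathways. Of 118 genes tested 25 were higher and 40 lower, so that 55.1% passed against 47.8% of all genes (24.8% higher and 22.9% lower). The median log2 fold change was −0.12 against 0.01 over all genes. With total-read scaling the split was 40 higher and 17 lower, beside 4367 higher and 1111 lower of all 10392 genes, so the balance of directions depended on the scaling. The share of each list that passed is given below beside that of all genes. These lists were also chosen with earlier results of these data known, so their shares are a description with no test.

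The thioredoxin and peroxiredoxin list (16 tested genes) had 4 higher and 9 lower, 81.2% against 47.8% of all genes, and 5 higher and 4 lower with total-read scaling. Its median was −0.29. With PRDX1 counted, 5 of the 6 peroxiredoxins fell, against 22.9% of all genes: PRDX2 by 0.40, PRDX4 by 0.44, PRDX5 by 0.55 and PRDX6 by 0.28 on the log2 scale, the last not past the threshold with total-read scaling (−0.08). Mitochondrial PRDX3 rose by 0.33 (SE 0.066, adjusted p = 0.00173). PRDX3, PRDX4 and PRDX6 were picked out with their values already known. SRXN1 rose by 0.63 (SE 0.16, adjusted p = 0.00764), TXNIP, which binds thioredoxin and restrains it, by 0.53, and SESN1 by 0.59. MSRB2, a mitochondrial methionine sulfoxide reductase, fell by 0.76 on the log2 scale.

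The glutathione and glutaredoxin list (20 tested) had 1 higher and 8 lower, 45% against 47.8% of all genes, with a median of −0.19. GSR, which regenerates glutathione, was the one that rose, at 0.25 (SE 0.097, adjusted p = 0.0499), and it did not pass with length and GC trends removed (0.19, adjusted p = 0.136). The transferases GSTO1, GSTP1, MGST3 and MGST2 fell by 0.56, 0.55, 0.39 and 0.36 on the log2 scale. With total-read scaling only 1 gene rose and 2 fell in this list, GSTO1 and GSTP1 staying lower. GSS, which completes glutathione synthesis, fell by 0.20 (adjusted p = 0.0281), a difference that turned to 0.01 with total-read scaling.

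In the list of lipid peroxidation and iron genes (23 tested) 7 were higher and 4 lower, the same share (47.8%) as of all genes. TFRC, the transferrin receptor, was 65.4 to 68.7 RPKM in sh-luc and 150.2 to 190.1 RPKM in sh-IUR-5, a log2 fold change of 1.11 (SE 0.079, adjusted p = 1.44e-05). ACSL4, which loads polyunsaturated fatty acids into membranes, rose by 0.74, the desaturase SCD by 1.00 and the iron exporter SLC40A1 by 0.81, whereas the ferritin chains FTH1 and FTL fell by 0.39 and 0.43 on the log2 scale. AIFM2, a ferroptosis suppressor that acts beside GPX4, fell by 0.25 (SE 0.081, adjusted p = 0.0236), which did not pass with total-read scaling (−0.04) or with length and GC trends removed (−0.18, adjusted p = 0.0625).

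Among 12 NRF2 regulators tested, 4 were higher and 1 lower, 41.7% against 47.8% of all genes. BACH1, which represses antioxidant response elements, went from 4.50, 5.64 and 5.57 RPKM in sh-luc to 15.1, 12.0 and 11.6 RPKM in sh-IUR-5, a rise of 1.10 (SE 0.12, adjusted p = 3.32e-05). BTRC and NFE2L1 rose by 0.59 and 0.38, and RBX1 fell by 0.31 on the log2 scale, which did not pass with total-read scaling (−0.10) or with the trends removed (−0.08). NFE2L2, the gene of NRF2, had a log2 fold change of 0.18 (SE 0.071, adjusted p = 0.0572) that passed with total-read scaling (0.38) and was −0.05 with the trends removed. KEAP1 had −0.19 (SE 0.10, adjusted p = 0.15).

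The other NRF2 target enzymes (20 tested) had 5 higher and 7 lower, 60% against 47.8% of all genes. NQO2 fell by 1.01 on the log2 scale (SE 0.074, adjusted p = 1.44e-05), and the biliverdin reductases BLVRA and BLVRB, which act after heme oxygenase, fell by 0.58 and 0.56, while the transporter ABCC4 rose by 0.69. The list named superoxide and peroxide enzymes (8 tested) also holds genes that are not such enzymes, among them CCS, OXSR1 and OXR1. In this list 3 were higher and 3 lower, 75% against 47.8% of all genes. SOD1 and its copper chaperone CCS fell by 0.46 and 0.56 and PARK7 by 0.53, whereas catalase (CAT) rose by 0.35, OXSR1 by 0.62 and OXR1 by 0.56.

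The list of selenocysteine machinery and other selenoproteins (19 tested) had 1 higher and 8 lower, 47.4% against 47.8% of all genes. The 8 include SEPSECS and TRNAU1AP of the machinery, which fell by 0.34 and 0.39 on the log2 scale. With total-read scaling the list had 5 higher and 2 lower. SELENOP, a secreted selenium carrier, went from 69.5 to 77.0 RPKM in sh-luc to 43.5 to 46.8 RPKM in sh-IUR-5 and fell by 0.90 on the log2 scale (SE 0.076, adjusted p = 1.49e-05). SELENON and SELENOK fell by 0.54 and 0.43, the latter not past the threshold with total-read scaling (−0.22). SELENOI rose by 0.78. SEPHS2, which makes the selenium donor, had a log2 fold change of 0.13 (SE 0.071, adjusted p = 0.155). Of 2 reference genes, ACTB had a log2 fold change of 0.01 (adjusted p = 0.917) and 0.22 with total-read scaling. GAPDH fell by 0.19 on the log2 scale (adjusted p = 0.0299), which did not pass with the trends removed (−0.14, adjusted p = 0.0723), and total-read scaling turned it to 0.01.

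The genes whose pattern over the 6 libraries was most like that of PRDX1 were COX7B, LSM5 and TBCA, with a root mean square difference of centred log2 values of 0.019, 0.023 and 0.026. For TXNRD1 they were CASP2, CHAMP1 and DNA2, at 0.031, 0.037 and 0.037.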

How the data were processed

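RNA-seq of 6 K562 libraries (3 sh-luc, 3 sh-IUR-5) was analysed. The authors trimmed adaptors and low-quality sequence and mapped reads to hg38; the submitters' processing notes name CASAVA 1.8, Trimmomatic 0.32, Bowtie2 2.1.0 and SAMtools 0.1.19. The authors deposited read counts per RefSeq protein accession, and RPKM values, each of which could be recomputed from the row's count, its length and the summed count of that library. Row lengths were multiples of 3 in 99.8% of rows, so they are coding lengths. The rule for reads that fit several rows is not given in the sources used here. The authors' own table of pooled values, fold changes and p-values was not used. Groups came from the sample titles, and the paper names this deposit as its sh-IUR-5 experiment.

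Accessions were given gene symbols through RefSeq (64.7% of rows and 83.9% to 84.8% of reads matched). Counts were summed per gene and tested with edgeR 4.0.16 (R 4.3.3; TMM, quasi-likelihood, two-sided, Benjamini-Hochberg adjustment, threshold 0.05) over genes with a mean summed RPKM of at least 1. Library sizes were the reads over all rows. Counts per row were tested in the same way over 38204 rows. Single levels had an exact permutation test, with a smallest p of 0.1. The tests were also run on simulated counts with independent libraries and few changed genes. That setting is unlike these data, so it does not show how the tests behave here. Copies of coding sequences were searched in hg38 with blastn 2.17.0 (at least 90% identity over 100 bases).

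The members and lists were chosen with earlier results of these data known. All members were named, with ACTB, GAPDH, 17 genes set by name and, from each list, up to 4 genes with the largest change that passed the threshold and moved one way in all 3 same-numbered library pairs. For the most abundant member and the one with the largest change, the 3 genes of nearest pattern were added. PRDX3, PRDX4, PRDX6 and the 6 ratios were added with their values already known. The settings varied were the replicate number as a block, the series number from the descriptions as a covariate, each library left out, DESeq2 1.42.0 and its size factors, total-read scaling, other minimum levels, limma 3.58.1 on log2(RPKM + 0.1) and log2(RPKM + 1), the row with the most reads, rows with no symbol added, and removal of length and GC trends (mgcv 1.9.3). Trend removal with the block, the same genes with trends kept, and libraries 2 and 3 of each group summed were added after the data were seen.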

Additional observations from a re-analysis of the deposited data

How the results depend on the processing

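GPX4, GCLC, TXN, TXNRD1 and PRDX1 kept their direction and their call in all 21 alternatives; NQO1 lost its call in 7, GCLM gained one in 9 and SLC7A11 in 3. GPX1, never past the threshold, changed sign with total reads (0.159), limma on log2(RPKM + 1) (0.00474), the row with the most reads (0.0268), trends removed (0.224), the same with the replicate block (0.17) and libraries 2 and 3 summed (0.00299), and ranged from −0.699 to 0.214 when 1 library was left out. The number of members called was 5 to 7 with 1 library left out, and of all genes 4058 to 4926. Summing libraries 2 and 3 of each group gave fewer called genes, 3513, with 47 list genes and 5 members (2 higher and 3 lower). NQO1 did not pass in that edgeR fit (−0.33, adjusted p = 0.0572). Rows with no symbol, added as features of their own, gave 8950 calls of 22162 against 4965. A minimum of 5 RPKM gave 7357 called rows of 16092 against 14259, and 74 genes with unequal rows of 3018 against 182; fewer features were tested in both. With 1 library left out, 116 to 147 genes had unequal rows. Total reads split the called genes 4367 higher to 1111 lower (2582 to 2383 with TMM), and the called rows 13203 to 3281.

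Same-numbered libraries were not taken as pairs: the correlation of their deviations was 0.45, 0.159 and 0.0052 for numbers 1, 2 and 3, and not every library correlated best with its own number. Across groups, libraries 2 and 3 of the shared series number correlated at 0.352 and 0.193, and library 1 of one group with libraries 2 and 3 of the other at −0.38 to −0.138. Deviations were taken from each group's own mean, so a positive value with 1 library forces a negative value with another. The negative values are therefore no separate sign that the series differed. A term for that series number gave 6276 called genes, 7 called members (GCLM 0.28, adjusted p = 0.0273), 80 list genes and 17918 rows. The replicate block gave 5954 called genes, 7 called members (GCLM 0.28, adjusted p = 0.0252), 78 list genes, 16837 rows and 202 genes with unequal rows. With it NFE2L2 (0.18, adjusted p = 0.0255) and KEAP1 (−0.18, adjusted p = 0.0469) also passed. A minimum of 5 RPKM left GPX1 and SLC7A11 untested. GPX1 and SLC7A11 had the fewest reads of the tested members, 14 to 51 and 67 to 178 per library.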
